A study of Mus musculus with 8 samples.

Results

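Poly(ADP-ribose) polymerases (PARPs) transfer ADP-ribose from NAD+ to proteins. PARP1 and PARP2 build chains of it at DNA breaks, whereas most other family members add a single unit. A subset of these mono-ADP-ribosyl transferases is known to be induced by interferons, the cytokines of the antiviral response, and acts in antiviral defence and in macrophage activation. A set of 8 genes grouped under this description was followed here across all libraries: Parp8, Parp9, Parp10, Parp11, Parp12, Parp14, Tiparp (TCDD-inducible PARP) and Dtx3l. The last encodes not a PARP but the ubiquitin ligase that forms a complex with PARP9. The grouping was taken as given, and interferon induction of its single genes was not tested. The 8 genes were chosen by gene symbol. All were found among the 24062 genes of the count table and the 13197 genes that passed the filter on low counts.

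The RNA came from immature myeloid cells (IMCs), which had been grown from bone marrow of 2-month-old C57BL/6 mice for 3 days with 40 ng/mL M-CSF, the macrophage colony-stimulating factor. There were 4 groups of 2 libraries each. PARP1 WT cells carried PARP1 flox/flox alleles without Cre, and PARP1CKO cells carried the same alleles with lysozyme-Cre. PARP2 WT cells carried PARP2 flox/flox alleles without Cre, and PARP2CKO cells carried these alleles with lysozyme-Cre. Thus both WT groups were homozygous for a floxed allele, and lysozyme-Cre is active in the myeloid lineage, so that other cells of a culture keep the floxed gene. The study describes littermate controls, while nothing in the labels says whether the 2 libraries of a group came from separate mice, so that p-values measure the spread between these libraries, which may be technical. No library was treated with interferon, and the inducibility that gives the genes their name could not be checked.

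The libraries held 37852450 to 61845125 counts on genes. Parp1 was at 202 and 211 counts per 1000000 (CPM) in PARP1 WT and fell to 63.2 and 59.1 CPM in PARP1CKO, with a log2 fold change of -1.75. Parp2 was at 48.2 and 48.3 CPM in PARP2 WT and fell to 25.8 and 25.6 CPM with the deletion, a log2 change of -0.91. Both drops passed edgeR's quasi-likelihood test (adjusted p = 0.0134 and 0.000139), so the transcripts of the targeted genes went with the labels, though 29.7% and 53.3% of the WT level remained. Parp1 also differed between the PARP2 WT libraries, with 251 and 155 CPM. The myeloid receptor genes Itgam and Csf1r were at 881 to 1035 and 1134 to 1273 CPM over all libraries.

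Promoter sequences are shown here because interferon acts on many of its targets through a short DNA element, the interferon-stimulated response element, which holds a repeated GAAA. RefSeq start sites on GRCm38.p6 were found for 5 of the 8 genes, Parp8, Parp11, Parp12, Tiparp and Dtx3l, with 2 start sites for Parp11. Parp9, Parp10 and Parp14 had no entry in the set of start sites used here, though each has annotated transcripts. The 250 bases before each start were searched on both strands for GAAA, any 2 bases, GAAA. Of these 5 genes, Parp11 was the 1 with a match, and it lay before the first of its start sites, 44 bases upstream on the opposite strand. Among all 27025 genes with an entry 3.46% had a match in any of their start sites, and among 22 genes of a list of interferon-stimulated genes 9 (40.9%) did. The Parp11 window, chr6:127446590-127446839 on the plus strand, is printed with the match in capitals. The bases before the Parp8 start, chr13:117025538-117025781 on the minus strand, are printed for contrast as a window without this match, less 6 bases that lie in an annotated exon.
Parp11: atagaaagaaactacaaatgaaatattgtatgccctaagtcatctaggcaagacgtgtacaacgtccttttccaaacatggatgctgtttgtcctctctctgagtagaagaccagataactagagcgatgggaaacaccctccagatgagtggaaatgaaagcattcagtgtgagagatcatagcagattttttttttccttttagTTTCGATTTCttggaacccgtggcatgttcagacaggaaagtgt
Parp8: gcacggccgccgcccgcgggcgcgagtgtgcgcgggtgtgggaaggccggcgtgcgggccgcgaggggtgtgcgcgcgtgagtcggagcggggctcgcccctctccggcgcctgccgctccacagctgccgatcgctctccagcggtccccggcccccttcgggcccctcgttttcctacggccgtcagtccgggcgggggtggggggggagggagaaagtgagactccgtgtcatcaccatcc
The matched bases of Parp11 run into a second pattern, TTC, any 3 bases, GAA, the core of the gamma-activated sites that STAT dimers bind, which starts 37 bases upstream and was present in 8.13% of all genes with an entry. The GC content of the full 250 bases was 40.4% before this Parp11 start and 74.8% before the Parp8 start. The core GCGTG of the dioxin response element, which the aryl hydrocarbon receptor binds, was found before a start of all 5 genes, of 30.9% of all genes with an entry and of 49.3% of those with an entry that were tested here. A match is a description of the letters, and binding was not measured.

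The 8 genes had 742 to 7393 counts each per library. To compare levels between genes, CPM were divided by the length of each gene's annotated exons. Parp12 had 12.1 ± 1.65 CPM per kb (mean and SD over the 8 libraries), Parp14 had 11.7 ± 2.91 and Tiparp had 11.1 ± 0.866. These 3 genes had the highest means and did not differ from each other beyond their spread. Parp9 followed at 8.25 ± 1.35 and Dtx3l at 7.40 ± 1.29 CPM per kb, and the ranges over libraries of these neighbours overlapped with each other. The highest Parp9 level, 10.7, lay above the lowest of Parp12 (10.4), Tiparp (10.0) and Parp14 (8.40), the highest of Dtx3l, 9.73, above the lowest of Parp14, and the range of Dtx3l met that of Parp10. Parp10 had 5.18 ± 0.510, Parp8 had 3.63 ± 0.369 and Parp11 had 2.53 ± 0.210 CPM per kb, and the ranges of these 3 genes did not overlap each other. The lower part of this order rests on the gene model. With the longest transcript in place of all exons, Parp8 moved from rank 7 to rank 5, Dtx3l from 5 to 6 and Parp10 from 6 to 7.

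**Figure D1:**
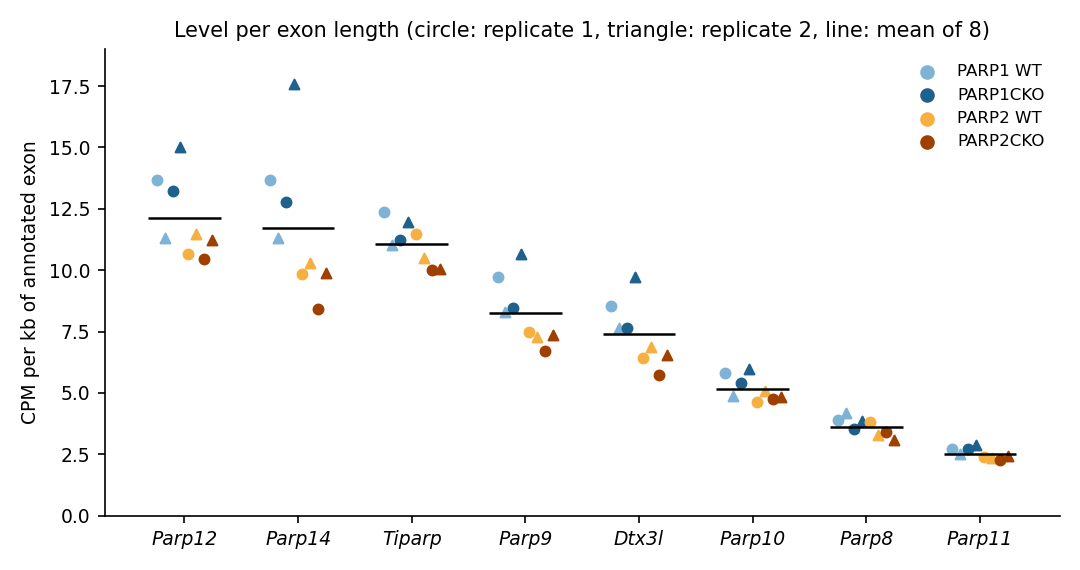
Level of the 8 genes per kb of annotated exon (CPM per kb), 1 point per library, coloured by group, with a line at the mean of the 8 libraries. Parp12, Parp14 and Tiparp are highest with means of 12.1, 11.7 and 11.1, and Parp11 is lowest at 2.53.

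Parp14, the largest of the macrodomain PARPs and known as a cofactor of STAT6, lies on chromosome 16 of GRCm38 from 35832874 to 35871544 on the minus strand. It had 127 and 105 CPM without Cre and 119 and 164 with it in the PARP1 floxed line. The PARP2 floxed line had 91.7 and 96.0 CPM in its WT libraries and 78.2 and 91.9 in PARP2CKO. PARP1CKO replicate 2 was highest and PARP2CKO replicate 1 lowest, 2.09-fold apart, and all 4 libraries of the PARP1 floxed line lay above all 4 of the PARP2 floxed line. The log2 fold change was 0.28 (SE 0.144, 95% confidence interval -0.05 to 0.60) in PARP1CKO and -0.14 (SE 0.145, interval -0.47 to 0.19) in PARP2CKO. Neither passed the test, with adjusted p = 0.494 and 0.968 (edgeR).

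Parp9 and Dtx3l are neighbours of Parp14 and are read from opposite strands, Parp9 from 35938470 to 35972605 and Dtx3l from 35926511 to 35939151. The encoded proteins form a complex that modifies histones and ubiquitin. In PARP1 WT replicates 1 and 2 Parp9 stood at 47.4 and 40.4 CPM, with 41.3 and 52.0 for PARP1CKO. PARP2 WT gave 36.4 and 35.5 CPM, compared with 32.7 and 35.95 for PARP2CKO. PARP1 WT libraries showed 48.9 and 43.8 CPM of Dtx3l, PARP1CKO libraries 43.8 and 55.7. In PARP2 WT it was at 36.7 and 39.4 CPM, and PARP2CKO had 32.9 and 37.5. Both genes had their highest and lowest level in the same libraries as Parp14, and the lines did not overlap. With either deletion the libraries overlapped with their controls, and the log2 fold change of Parp9 was 0.09 (SE 0.109) in PARP1CKO and -0.07 (SE 0.110) in PARP2CKO. For Dtx3l it was 0.10 (SE 0.111) and -0.11 (SE 0.112). The exons of these genes share 458 bases, 9.40% of those of Parp9 and 8.0% of those of Dtx3l. The libraries were made with a stranded kit, but the strand setting of the counting is not given in the sources used here. How reads of the shared bases were counted, or whether they were, is thus not known.

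Parp12, which holds zinc fingers and blocks the replication of several RNA viruses, lies on chromosome 6 from 39086410 to 39118349. It had 54.6 and 45.2 CPM without Cre and 52.8 and 60.1 with it in the PARP1 floxed line. The PARP2 floxed line had 42.5 and 45.9 CPM in its WT libraries and 41.7 and 44.9 in PARP2CKO. PARP1CKO overlapped with PARP1 WT, and PARP1 WT replicate 2 was within the range of the PARP2 floxed line. The log2 fold change was 0.18 (SE 0.0940, adjusted p = 0.500 in edgeR) in PARP1CKO and -0.03 (SE 0.0941) in PARP2CKO. The PARP1CKO value of Parp12 was 0.04 without PARP1 WT replicate 2, 0.08 without PARP1CKO replicate 2 and 0.32 without PARP1 WT replicate 1.

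Parp10, a mono-ADP-ribosyl transferase with roles in NF-kappaB signalling, lies on chromosome 15 from 76231174 to 76243441. In PARP1 WT replicates 1 and 2 it stood at 24.9 and 20.9 CPM, with 23.2 and 25.6 for PARP1CKO. PARP2 WT gave 19.8 and 21.7 CPM, compared with 20.3 and 20.7 for PARP2CKO. PARP1CKO overlapped with PARP1 WT, the PARP2CKO libraries lay between those of PARP2 WT, and PARP1 WT replicate 2 was within the range of PARP2 WT. Parp10 shares 205 exon bases (4.80%) with Plec on the same strand, and reads there cannot be assigned by strand. Parp11, which modifies proteins at the nuclear envelope and targets the interferon receptor chain IFNAR1, lies on chromosome 6 from 127446840 to 127494261. PARP1 WT libraries showed 19.2 and 17.6 CPM of this transcript, PARP1CKO libraries 19.03 and 20.1. In PARP2 WT it was at 16.8 and 16.5 CPM, and PARP2CKO had 16.0 and 17.1. The lines did not overlap, and within each line the groups did. The log2 fold change in PARP1CKO was 0.09 for both genes (SE 0.0911 for Parp10 and 0.0687 for Parp11), and in PARP2CKO it was -0.02 and -0.01 (SE 0.0906 and 0.0683). The PARP1CKO value of Parp11 was 0.03 without PARP1 WT replicate 2 and 0.15 without PARP1 WT replicate 1. That of Parp10 was -0.04 and 0.22 in these fits and thus turned sign.

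Tiparp, on chromosome 3 from 65528410 to 65555518, is a target and repressor of the aryl hydrocarbon receptor. It shares 223 exon bases (5.12%) with the pseudogene 4931440P22Rik on the opposite strand. It had 54.0 and 48.0 CPM without Cre and 48.9 and 52.2 with it in the PARP1 floxed line. The PARP2 floxed line had 49.96 and 45.8 CPM in its WT libraries and 43.6 and 43.8 in PARP2CKO. Both PARP2CKO libraries were below both PARP2 WT libraries, and the log2 fold change was -0.13 (SE 0.0660, 95% interval -0.28 to 0.02, unadjusted p = 0.0752, adjusted p = 0.954 in edgeR). It was -0.07 without PARP2 WT replicate 1 and -0.19 without PARP2 WT replicate 2. Parp8, a less studied mono-ADP-ribosyl transferase, lies on chromosome 13 from 116854820 to 117025537. In PARP1 WT replicates 1 and 2 it stood at 34.7 and 37.1 CPM, with 31.5 and 34.3 for PARP1CKO. PARP2 WT gave 33.9 and 29.1 CPM, compared with 30.1 and 27.4 for PARP2CKO. Its log2 fold change was -0.13 with either deletion (SE 0.0847 in PARP1CKO and 0.0843 in PARP2CKO), and in PARP1CKO both libraries lay below both PARP1 WT libraries. Neither value passed the test (adjusted p = 0.591 and 0.954 in edgeR), and the size of both moved with single libraries. Over the 13 alternatives tried for each deletion, both stayed negative. They ran from -0.19 to -0.07 in PARP1CKO and from -0.23 to -0.01 in PARP2CKO. In PARP1CKO the value of Parp8 was -0.07 without PARP1CKO replicate 1 and -0.08 without PARP1 WT replicate 2. In PARP2CKO it was -0.01 without PARP2 WT replicate 1 and -0.06 without PARP2CKO replicate 2.

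**Figure D2:**
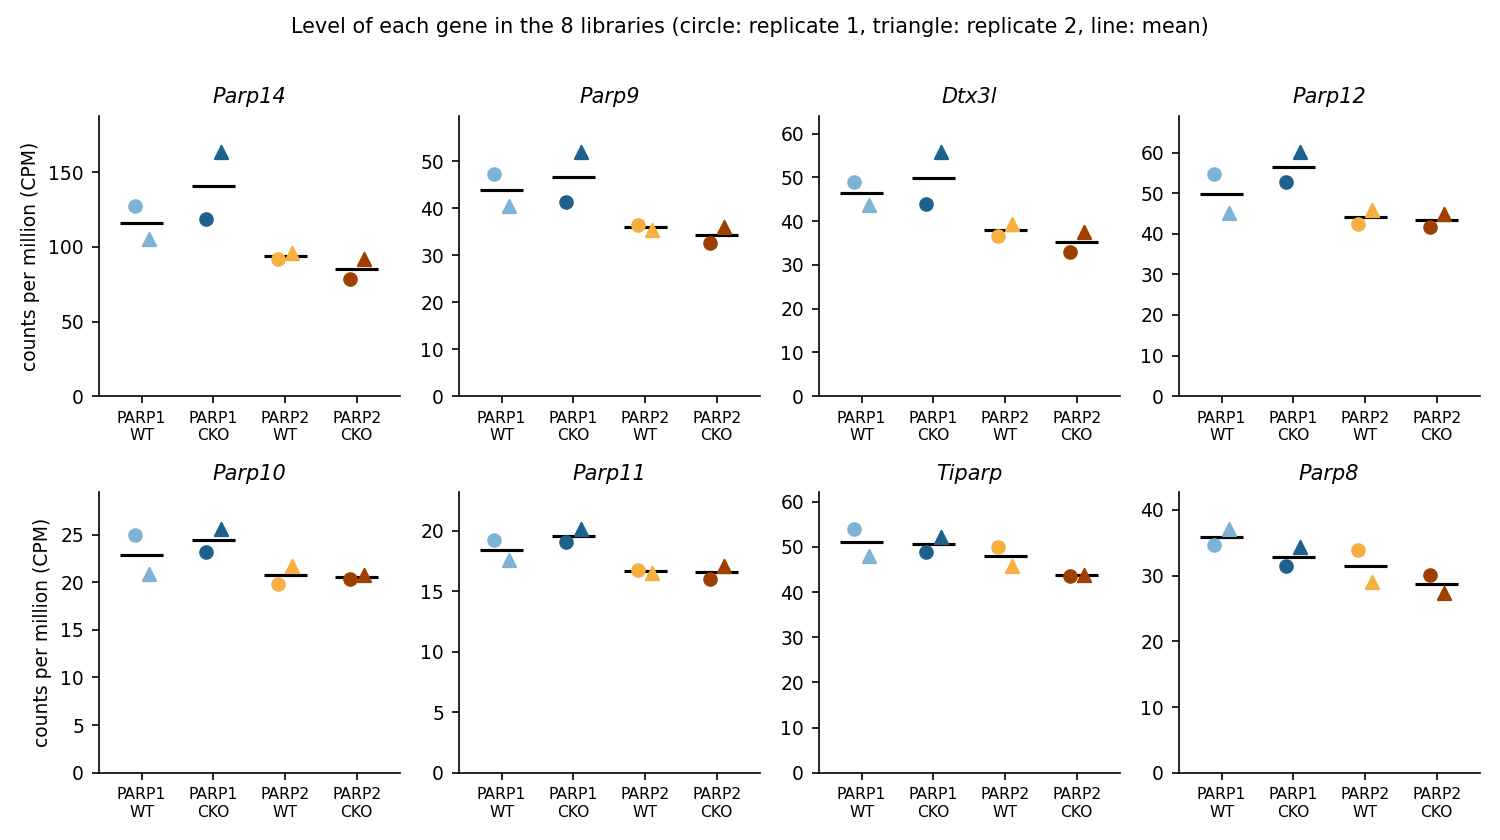
Level of each gene in CPM (vertical axis from 0) in the 4 groups, with replicate 1 as a circle, replicate 2 as a triangle and the mean as a line. Parp14, Parp9, Dtx3l and Parp11 are higher in all 4 libraries of the PARP1 floxed line than in all 4 of the PARP2 floxed line, and PARP1CKO replicate 2 is the highest point in 6 of the 8 panels.

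The first question of the design was what loss of PARP1 in myeloid cells does to each transcript. None of the 8 genes was called in PARP1CKO against PARP1 WT (adjusted p below 0.05 in edgeR's quasi-likelihood test), where 14 of 13197 genes (0.106%) were called over all. None had an unadjusted p-value under 0.05 either, against 1486 of the 13197 genes tested. DESeq2 and the likelihood-ratio test called none of the 8. In 6 genes the PARP1CKO mean was higher and in 2, Parp8 and Tiparp, it was lower, with a median log2 fold change of 0.09 beside 0.01 over all genes tested. The intervals of the 8 genes ran from -0.32 to 0.60. The groups did not overlap in 1 gene (Parp8), and over all genes tested they did not overlap in 41.2%.

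The positive values of Parp14, Parp9 and Dtx3l in PARP1CKO rested on single libraries. Without PARP1CKO replicate 2 the log2 fold change of Parp14 was 0.03, that of Parp9 was -0.09 and that of Dtx3l was -0.08. Without PARP1CKO replicate 1 that of Parp14 was 0.49, and without PARP1 WT replicate 2 that of Parp9 was -0.03, with no call in either case. In PARP1CKO the replicates were 0.46 apart for Parp14 on the log2 scale, 0.33 for Parp9 and 0.35 for Dtx3l, which was more than the difference between the group means.

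Loss of PARP2 gave no call among the 8 genes either, where 7 of 13197 genes (0.0530%) were called. No member had an unadjusted p-value under 0.05, against 637 genes over all, and DESeq2 and the likelihood-ratio test called none. All 8 means were lower in PARP2CKO than in PARP2 WT, by 0.01 (Parp11) to 0.14 (Parp14) on the log2 scale, and the median was -0.09 beside 0.00 over all genes. The sizes rested on single libraries. Without PARP2CKO replicate 1 Parp14 was at -0.03, Dtx3l at -0.02 and Parp9 at 0.00, and without PARP2CKO replicate 2 they were at -0.26, -0.21 and -0.14. Parp10, Parp11 and Parp12 turned sign when a single library was left out. The intervals ran from -0.47 to 0.19. The groups were apart in 1 gene, Tiparp, and over all genes tested in 37.2%.

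The difference between the deletion effects, PARP2CKO minus PARP1CKO, was called in none of the 8 genes, with 2 genes (0.0152%) called over all, and no unadjusted p-value was under 0.05 (1015 over all). DESeq2 and the likelihood-ratio test called none of the 8. It was most negative for Parp14, at -0.42 (SE 0.204, 95% interval -0.88 to 0.04, adjusted p = 0.678 in edgeR), and closest to 0 for Parp8, at 0.00 (SE 0.119). The value of Parp14 was -0.17 without PARP1CKO replicate 2 and -0.63 without PARP1CKO replicate 1.

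**Figure D3:**
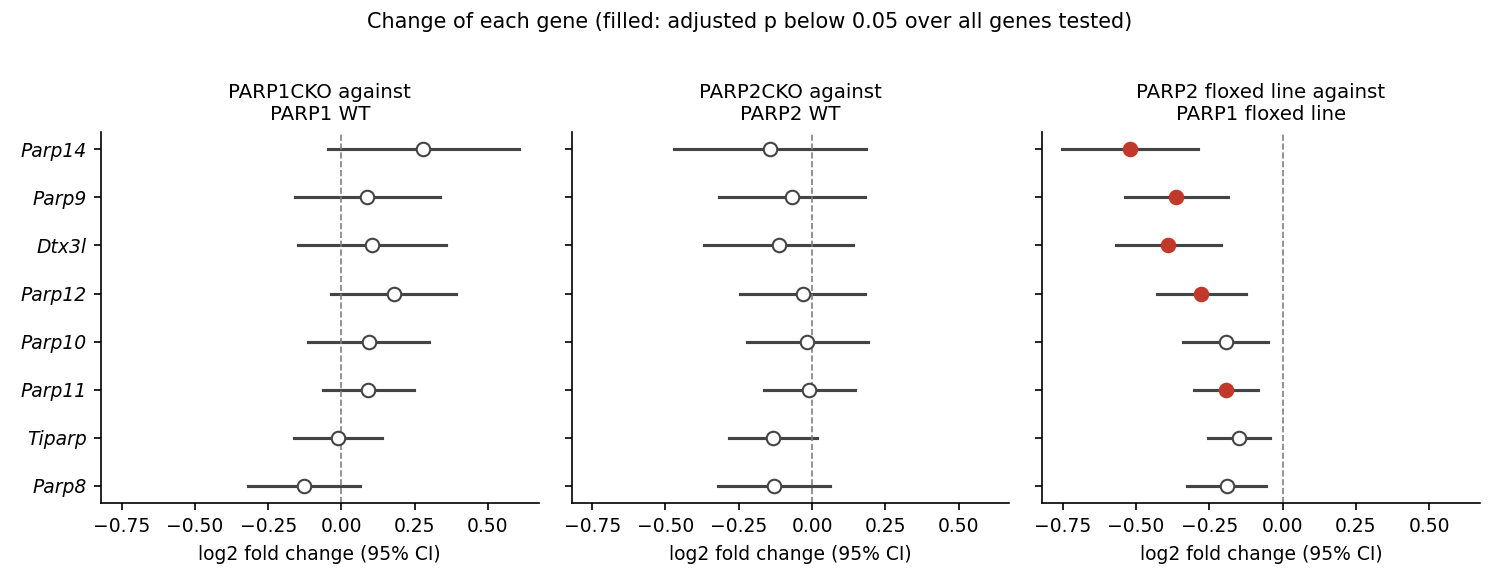
Log2 fold change of the 8 genes (horizontal axis, point with 95% confidence interval) in PARP1CKO, in PARP2CKO and between the floxed lines. All intervals cross 0 for both deletions, and 5 of the 8 genes are called between the lines, where Parp14 is at -0.52.

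The WT groups of the lines were then compared. In PARP2 WT all 8 means were lower than in PARP1 WT, with a median log2 fold change of -0.18 beside 0.00 over all genes. None was called, where 417 of all genes (3.16%) were, and DESeq2 and the likelihood-ratio test called none of the 8. Parp9 (-0.29, SE 0.110) and Dtx3l (-0.28, SE 0.112) had unadjusted p-values of 0.0292 and 0.0329 in edgeR, and 2497 genes over all had one under 0.05. Without PARP1 WT replicate 1 the values were -0.17 for Parp9, -0.20 for Dtx3l, -0.17 for Parp14, -0.08 for Parp11, -0.03 for Parp12, -0.01 for Parp10, 0.00 for Tiparp and -0.24 for Parp8. The value of Parp8 was -0.09 without PARP2 WT replicate 2. Without PARP1 WT replicate 2 Parp14 was at -0.44, Parp9 at -0.40, Dtx3l at -0.36 and Parp11 at -0.21. In that fit Parp12 was at -0.31, Parp10 at -0.27, Tiparp at -0.17 and Parp8 at -0.14. With all libraries Parp14 was at -0.31, Parp8 at -0.19, Parp12 at -0.17, Parp10 and Parp11 at -0.14 and Tiparp at -0.09. In 5 genes, Parp8, Parp9, Parp11, Parp14 and Dtx3l, both PARP2 WT libraries were below both PARP1 WT libraries, and the groups were apart in 51.9% of all genes.

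Once this pattern had been seen, the 4 libraries of the PARP2 floxed line were set against the 4 of the PARP1 floxed line, as the mean of the WT and CKO groups of each in the same fit. Of the 8 genes, 5 were called lower in the PARP2 floxed line. Parp14 was lower by a log2 fold change of -0.52 (SE 0.102, 95% interval -0.75 to -0.29, adjusted p = 0.0103 in edgeR). Dtx3l followed at -0.39 (adjusted p = 0.0118), Parp9 at -0.36 (0.0147), Parp12 at -0.28 (0.0231) and Parp11 at -0.19 (0.0277). Parp8 (-0.19, 0.0601), Tiparp (-0.15, 0.0603) and Parp10 (-0.19, 0.0717) did not pass. Over all 13197 genes, 2164 (16.4%) were called between the lines and 1061 (8.04%) were called lower in the PARP2 floxed line. The lines were apart, with the PARP2 floxed line below, in 4 of the 8 genes and in 9.93% of all genes.

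The comparison was chosen after the values were seen, and it shares its libraries with the other comparisons. Line, colony, deleted gene and any batch of culture or sequencing cannot be told apart in it. Apart from Parp14, which of the 8 genes were called changed when single libraries were left out. Without PARP1 WT replicate 1 the log2 fold changes were -0.30 for Parp9, -0.21 for Parp12 and -0.16 for Parp11. Without PARP1CKO replicate 2 they were -0.28, -0.23 and -0.17 in the same order. Over the 16 alternatives tried, Parp14 was called in 16, at -0.63 to -0.40, Dtx3l in 15, Parp9 in 14, Parp12 in 12 and Parp11 in 10. Parp8 was called in 6, Tiparp in 5 and Parp10 in 4. All 8 log2 fold changes were negative in all 16.

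Markers of other cells that a marrow culture can hold moved with the line as well. The summed level of 6 B cell genes was 27.6 to 40.0 CPM in the PARP1 floxed line and 7.88 to 10.7 CPM in the PARP2 floxed line, and all 5 that were tested were called lower in the latter, with Cd79a at -1.99 on the log2 scale. The 5 basophil and mast cell genes summed to 12.5 to 18.1 against 6.42 to 10.6 CPM, and all 5 were called lower. The 6 erythroid genes were at 3.29 to 6.48 against 1.49 to 1.89 CPM, with 3 of 4 tested called lower and all 4 negative, and the 5 plasmacytoid dendritic cell genes, the cells known for making type I interferon, were at 118 to 140 against 104 to 112 CPM, again with 3 of 4 tested called lower and all 4 negative. In that list Bst2 is itself an interferon-stimulated gene and makes up most of the sum, while Siglech was at 3.71 to 5.73 against 2.33 to 4.03 CPM and was not called. The 7 T and NK cell genes summed to 4.05 to 5.95 against 3.29 to 4.90 CPM, with Cd3e at 0 to 6 counts per library. Of 3 tested, none was called, 2 were negative and 1 was positive. The negative ones were Cd4 (-0.45) and Cd8a (-0.74), with unadjusted p-values of 0.014 and 0.0356 in edgeR. The neutrophil genes summed to 2646 to 3333 against 2920 to 3509 CPM. Of 8 tested, 6 were positive and 2 negative, and 3, Prtn3, Elane and Mpo, were called higher in the PARP2 floxed line. The 7 myeloid genes found summed to 7607 to 10420 against 9924 to 14960 CPM, and Lyz2 and Fcgr1 of them were called higher in the PARP2 floxed line. Lyz2, the lysozyme gene whose locus carries the Cre in the CKO groups, had 3495 to 6387 of these CPM in the PARP1 floxed line and 5747 to 10800 in the PARP2 floxed line. Its log2 fold change was -0.63 in PARP1CKO (adjusted p = 0.135) and -0.72 in PARP2CKO (adjusted p = 0.188), not called by edgeR. The part of these cells in the lower levels of the 5 genes was not tested, and in bulk RNA fewer cells of a type cannot be told from less RNA per cell.

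Over all 8 libraries the genes differed in how far they spread. The SD of log2 CPM was 0.336 for Parp14, 0.244 for Dtx3l, 0.227 for Parp9, 0.189 for Parp12, 0.148 for Parp8, 0.139 for Parp10, 0.118 for Parp11 and 0.113 for Tiparp. Parp14 thus ranked at percentile 86.8 of all genes tested and Tiparp at 57.2. PARP1CKO replicate 2 was the highest library in 6 genes, and PARP2CKO replicate 1 the lowest in 6. Parp8 departed from this order, with its highest level in PARP1 WT replicate 2 and its lowest in PARP2CKO replicate 2, and Tiparp was highest in PARP1 WT replicate 1. Parp10 was lowest in PARP2 WT replicate 1. Summed markers of B, T and NK, plasmacytoid dendritic and erythroid cells were also highest in PARP1CKO replicate 2. These sums were lowest in PARP2CKO replicate 1 as well, with 40.0 and 7.88 CPM for B cell and 6.48 and 1.49 CPM for erythroid markers. The basophil and mast cell sum was lowest in PARP2CKO replicate 1 but highest in PARP1 WT replicate 1. The neutrophil and myeloid sums had their extremes in other libraries.

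A list of interferon-stimulated genes had the same extremes as most of the 8 genes and as these marker sums. It held Isg15, the Ifit, Mx and Oas genes, Irf7, Usp18 and others, of which 29 were found and all tested. PARP1CKO replicate 2 was the highest library in 29 of the 29 and PARP2CKO replicate 1 the lowest in 24. The deviation of a library from each gene's mean had a median of 0.99 on the log2 scale in PARP1CKO replicate 2, and of -0.68 in PARP2CKO replicate 1. For Parp14 these deviations were 0.62 and -0.45, for Dtx3l 0.41 and -0.34, and for Tiparp 0.12 and -0.14. The median was 0.45 in PARP1 WT replicate 1, 0.23 in PARP1CKO replicate 1 and -0.10 in PARP1 WT replicate 2. It was -0.27 and -0.21 in PARP2 WT and -0.36 in PARP2CKO replicate 2.

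**Figure D4:**
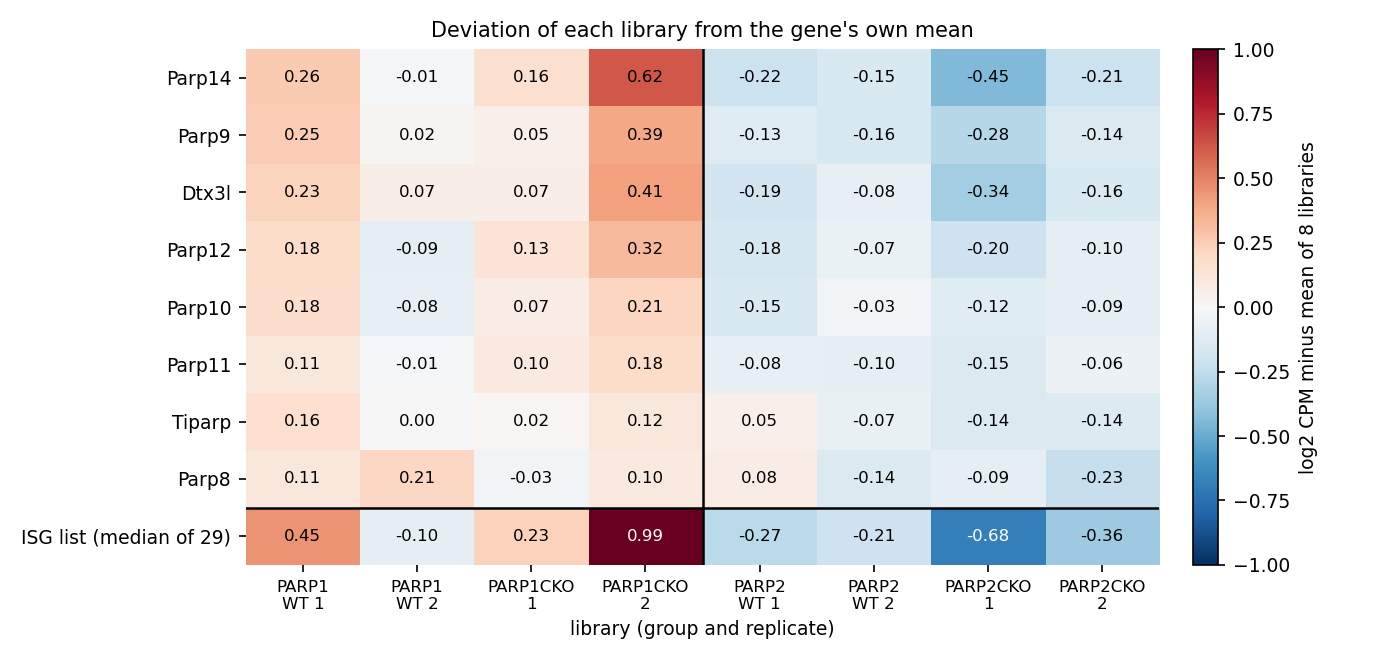
Deviation of log2 CPM in each library (columns) from the mean over the 8 libraries, for the 8 genes and, in the bottom row, the median over 29 interferon-stimulated genes. Red is above and blue below the mean. PARP1CKO replicate 2 and PARP2CKO replicate 1 are the extremes of the list at 0.99 and -0.68, and of Parp14 at 0.62 and -0.45.

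By edgeR, none of the 29 interferon-stimulated genes was called in PARP1CKO or in PARP2CKO. Unadjusted p-values under 0.05 (edgeR) were found for 5 and 0 of them, beside 1486 and 637 of all 13197 genes. The median log2 fold change of the list was 0.41 in PARP1CKO and -0.22 in PARP2CKO. The PARP1CKO median was 0.02 without PARP1CKO replicate 2 and 0.13 without PARP1 WT replicate 2, but 0.77 and 0.76 without replicate 1 of PARP1 WT and of PARP1CKO. The PARP2CKO median was -0.07 without PARP2CKO replicate 1. In PARP2 WT against PARP1 WT the log2 fold change was negative in 29 of 29. Of these, 11 had an unadjusted p-value under 0.05 in edgeR, beside 2497 of all 13197 genes. Called lower were 163 of all genes and 3 of the list, Oas3 (-1.02, adjusted p = 0.00703 in edgeR), Oas2 (-0.77, 0.0188) and Oas1a (-0.59, 0.0431). The median was -0.48, and it was -0.16 without PARP1 WT replicate 1 and -0.72 without PARP1 WT replicate 2. Oas3, which makes the second messenger that activates RNase L, had 81.7, 59.9, 71.5 and 83.4 CPM in the PARP1 floxed line and 34.5, 34.9, 28.5 and 33.1 CPM in the PARP2 floxed line. Between the lines 25 of the 29 were called lower, beside 8.04% of all genes, and the median of the list was -0.86. Dhx58, Ifi35, Mx2 and Cxcl10 did not pass. The largest shift was that of Ifi44 at -1.94 (SE 0.373), from 0.665 to 1.92 CPM down to 0.151 to 0.404 CPM. The shifts of the 8 genes were smaller than the median of this list.

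The machinery upstream of these genes was measured with 16 signalling genes, of which 14 were tested. Of the interferon genes themselves the list held Ifnb1 and Ifng. Ifnb1 had 1 count in PARP1 WT replicate 2 and 0 in the other libraries, and Ifng had at most 1 count. The receptor genes Ifnar1 and Ifnar2 had 202 to 224 and 98.2 to 112 CPM and were not called in any comparison. None of the 14 was called in either deletion, in the difference of the effects or between the WT groups. In these comparisons 4, 0, 4 and 1 of them had an unadjusted p-value under 0.05 (edgeR). Over all 13197 genes, 1486, 637, 1015 and 2497 did. Between the lines, where 8.04% of all genes were called lower, 5 of the 14 were called lower. Among them were Usp18 (-1.16), the protease that removes ISG15, and the transcription factor genes Irf7 (-0.78), Stat2 (-0.36) and Irf1 (-0.27). Irf7 and Usp18 are also in the list of interferon-stimulated genes. The factor gene Irf9 (-0.18, adjusted p = 0.128 in edgeR) and the kinase genes Jak1, Jak2 and Tyk2 were not called.

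The genes closest to the 3 most variable members were found by the root mean square distance of centred log2 CPM over the 8 libraries. For Parp14 they were Irgm2 (distance 0.0559), Irgm1 (0.0569) and Xaf1 (0.0585), and the first pair encodes interferon-inducible GTPases. Irgm1 had 45.9, 35.0, 37.0 and 54.9 CPM in the PARP1 floxed line and 30.3, 31.6, 27.0 and 30.5 CPM in the PARP2 floxed line. Among the 3 closest to Parp9 were Dtx3l (0.0469) and Herc6 (0.0471), and among the 3 closest to Dtx3l were Cd200r4 (0.0422) and the amino acid transporter gene Slc38a2 (0.0443). Herc6 had 21.3, 18.6, 20.8 and 24.8 CPM in the PARP1 floxed line and 17.2, 16.2, 15.4 and 16.4 CPM in the PARP2 floxed line. Among the other members, Parp8 was farthest from Parp14, at 0.272. These distances describe 8 libraries that share the line difference and the 2 extreme libraries.

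The 3 members on chromosome 16 lie within 139732 bases of each other, and the tested genes up to 300000 bases to either side were listed with them. Of the 11 genes, Parp14, Dtx3l and Parp9 were called between the lines and the other 8 were not. Hspbap1, next to Parp14, was at -0.32 (adjusted p = 0.0582 in edgeR). On the other side Kpna1 was at -0.02 (0.715), and Fam162a was at 0.14 (0.0954). Gm5483 (-1.86, 0.121) and Stfa2l1 (-0.92, 0.0689), members of the stefin cluster, had larger differences that did not pass.

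**Figure D5:**
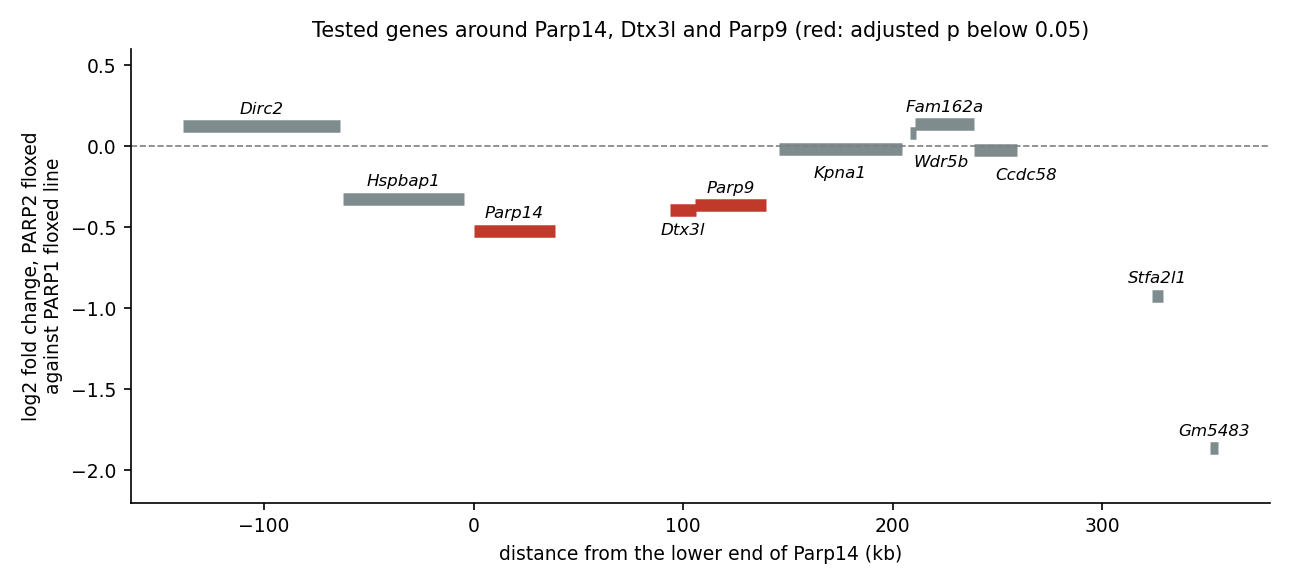
Log2 fold change between the lines (vertical axis) of the 11 tested genes around Parp14, Dtx3l and Parp9, drawn at their distance in kb from the lower end of Parp14. The 3 red bars, at -0.52, -0.39 and -0.36, are the called genes, and Kpna1, beside Parp9, lies at -0.02.

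Other genes of ADP-ribosylation were compared with the 8. Of the other 9 PARP family genes, Parp1 alone was called in PARP1CKO and Parp2 alone in PARP2CKO. Between the lines Parp4 (-0.14) and Zc3hav1 (-0.18), the zinc-finger antiviral protein, were called lower. Zc3hav1 had 116, 115, 116 and 124 CPM in the PARP1 floxed line and 107, 101, 102 and 106 CPM in the PARP2 floxed line, and the lines were apart. Parp1 and Parp2, the deleted genes, were called there as well, and Parp2 was higher in PARP2 WT than in PARP1 WT (0.27, adjusted p = 0.0159 in edgeR). Parp3, Parp6, Parp16, Tnks and Tnks2 were not called in any comparison. The erasers of ADP-ribose, Macrod1, Macrod2, Oard1, Adprhl2, Adprh and Parg, gave no call in any comparison, by edgeR, and the lowest adjusted p was 0.0899 (Adprh, 0.10, between the lines).

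Genes tied to single members were compared last. Of 5 tested genes of the aryl hydrocarbon receptor pathway, to which Tiparp belongs, none was called in either deletion. Between the lines Nqo1 alone was called, lower in the PARP2 floxed line (-0.56, adjusted p = 0.00212 in edgeR). Over all genes 16.4% were called there. Of the 5 genes, 2 were positive and 3 negative, with a median of -0.004. Nqo1 had 20.9, 16.2, 20.9 and 21.7 CPM in the PARP1 floxed line and 14.0, 13.4, 13.4 and 12.9 CPM in the PARP2 floxed line. Cyp1a1, the classical target of this receptor, had 0 to 5 counts per library. Cyp1b1 had 0.310 to 0.826 CPM in the PARP1 floxed line and 0.250 to 1.16 CPM in the PARP2 floxed line, with log2 fold changes of -1.10 in PARP1CKO (adjusted p = 0.450) and 1.01 in PARP2CKO (adjusted p = 0.954, edgeR).

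Parp14 is known as a cofactor of STAT6, the factor that interleukin-4 activates. Of the 5 tested genes of this pathway, none was called in either deletion. Chil3 (0.49) and Mrc1 (0.32), which mark alternatively activated macrophages, were called higher in the PARP2 floxed line, opposite in sign to Parp14. Over all 13197 genes, 1103 were called higher there. Stat6 was at 283 to 311 CPM over all libraries (-0.04 in PARP1CKO, 0.00 in PARP2CKO). Immediate early genes, which Tiparp resembles in its fast induction, had negative log2 fold changes in PARP1CKO in 12 of 14 cases. Of the 14, 6 had an unadjusted p-value under 0.05 in edgeR, beside 1486 of all 13197 genes. Called lower were 10 of all genes and 2 of the 14, Dusp1 (-1.20) and Fos (-1.45). Fosb (-3.08, adjusted p = 0.0549 in edgeR) and Egr1 (-2.51, adjusted p = 0.0597) were not called. Tiparp was at -0.01 in that comparison (SE 0.0664, 95% interval -0.16 to 0.14). In PARP2CKO 10 of the 14 early genes were negative, with a median of -0.17. By edgeR, 5 had an unadjusted p-value under 0.05, beside 637 of all genes. None of the 14 was called, with Egr1 at -1.58 and Tiparp at -0.13.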

How the data were processed

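Total RNA of IMCs was sequenced as single-end reads from stranded libraries. Values were deposited as raw counts of reads on genes, and the authors obtained them by mapping to mm10 with TopHat2 (version 2.0.12), marking duplicates with Picard (version 1.127) and counting with featureCounts. Annotation, strand setting and treatment of marked duplicates are not given in the sources used here. Counts of all 8 libraries were fitted together in edgeR 4.0.16 (R 4.3.3, limma 3.58.1) with a mean per group, TMM factors, filterByExpr, the quasi-likelihood test and Benjamini-Hochberg adjustment over all genes tested, with a threshold of 0.05. CPM used TMM library sizes, and log2 CPM a prior count of 2. Replicates differed by more than sampling noise (mean chi-square per gene 8.56 to 12.9), and each library counted once in the fit. That excess cannot tell separate mice from separate cultures or preparations. Exon lengths and positions were those of GENCODE M21. Members and lists were chosen with earlier results of these data known. Named genes were the 8 members, Parp1, Parp2, the genes of each list with the smallest p or largest change, the 3 nearest genes of the 3 most variable members, and markers near 0. Some genes that this rule names are not reported here. Genes named for their role, such as Irf9, Kpna1, Cd79a or Stat6, were chosen after their values were seen. Alternatives were DESeq2 1.42.0 and its size factors, library size alone, the likelihood-ratio test, 4 libraries per fit, 2 other filters, replicate blocks and leaving out each library. The fit was tested on simulated data. Figures used matplotlib 3.10.9.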

Additional observations from a re-analysis of the deposited data

Results flagged for a closer look

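The effects of the deletions on Parp2 differed from each other, with PARP2CKO minus PARP1CKO at -0.82 on the log2 scale (adjusted p = 0.00634 in edgeR's quasi-likelihood test of the difference). Parp2 is the gene deleted in PARP2CKO, and none of the 8 genes described above was called in this test.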

How the results depend on the processing

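With 2 libraries per group, none of the 8 genes was called for either deletion, for the difference of the effects or between the WT groups under any alternative run, and between the lines all 8 stayed lower in the PARP2 floxed line. The number of the 8 called between the lines was 8 with library size only, with the likelihood-ratio test and with no filter on low counts, and 1 to 7 without single libraries. Counts over all genes moved as well, and the cause was not tested. For PARP1CKO, PARP2CKO and the difference of their effects, DESeq2 called 86, 27 and 45 genes, the likelihood-ratio test 146, 39 and 72, and the fit with no filter 101, 26 and 61. Between the WT groups the likelihood-ratio test called 910 genes and the fit with no filter 872. Library size only, the likelihood-ratio test and no filter called 2647, 2664 and 2583 genes between the lines, against 2164 in the main fit. Leaving out single libraries gave 1 to 33 genes for PARP1CKO, 6 to 19 for PARP2CKO, 1 to 16 for the difference, 85 to 318 between the WT groups and 1087 to 2313 between the lines.

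Small log2 fold changes turned sign when single libraries were left out. In PARP1CKO the range was -0.086 to 0.25 for Parp9, -0.035 to 0.22 for Parp10, -0.098 to 0.072 for Tiparp and -0.079 to 0.27 for Dtx3l. In PARP2CKO it was -0.079 to 0.049 for Parp10, -0.055 to 0.036 for Parp11 and -0.086 to 0.026 for Parp12. For the difference it was -0.10 to 0.11 for Parp8, -0.31 to 0.018 for Parp9 and -0.24 to 0.020 for Parp10. The value of Parp8 in the difference was 0.0028 with DESeq2 size factors, 0.0021 with DESeq2 and 0.0012 with crossed replicate numbers as a block.

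Same-numbered libraries did not deviate together (r = -0.13 for the PARP1 pair and 0.15 for the PARP2 pair, across genes), so the numbers were not taken to pair them. With the replicate block, 14 genes were called for PARP1CKO, 6 for PARP2CKO, 3 for the difference, 315 between the WT groups and 2028 between the lines, with 5 of the 8 members in the last. With the crossed pairing, added after the data were seen, the counts were 11, 5, 2, 439 and 2184.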
